A study of Mus musculus with 8 samples.

Results

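The cells described here are mouse embryonic fibroblasts (cultured connective-tissue cells taken from embryos) labelled Arid5a-/- (KO), and the question is what interleukin 6 (IL-6) still changes in them. They make up 4 of the 8 libraries of the series: 2 libraries of KO cells kept for 24 h without IL-6 and 2 of KO cells kept for 24 h with 100 ng/ml IL-6. The other 4 libraries are wild-type (WT) cells of the same labelled type, 2 without and 2 with IL-6 under the same dose and time. They serve to set the size of the KO response, and they also enter the filter and the spread behind the KO tests. The libraries were put into groups by their labels, but the comparison and its members were chosen with earlier results of these data known. The change of every gene is the mean of the treated minus the mean of the untreated KO libraries. The series was set up around IL-6, Arid5a and a long non-coding RNA (lncRNA) in breast cancer. The labels do not name the allele, the part of the gene removed, or whether the KO cells come from 1 embryo or clone, and nothing in them tells whether a group's 2 libraries were separate cultures. The p-values therefore reflect only how far such libraries lie apart, and that spread may be technical.

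IL-6 signals through a receptor made of the IL-6-binding chain (gene Il6ra), or its soluble form, and the shared signal chain gp130 (gene Il6st). Bound receptor activates JAK kinases, which phosphorylate the transcription factor STAT3, and STAT3 then switches on genes such as Socs3, Cebpd, Osmr and the acute-phase genes. Socs3 encodes the inhibitor that shuts the receptor down again. Arid5a is an RNA-binding protein known for stabilizing inflammatory transcripts, Il6 and Stat3 among them.

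All values are FPKM (fragments scaled to transcript length and library depth), summed over the transcripts of a gene, and a change is the difference of log2(FPKM + 1) between group means, which understates the change of genes at a low level. Of 55358 genes, 13693 reached 1 FPKM in at least 2 of the 8 libraries and were tested with limma, and a gene passed at a Benjamini-Hochberg adjusted p below 0.05. Depth read from the steps of the low values was 36.4 to 46.1 M fragments per library (M, 1e6), and 12570 to 12699 genes reached 1 FPKM in a library. The 2 libraries of a group correlated at 0.9927 to 0.9935 over genes, which share depth and gene length. In bulk samples, fewer cells of a type and less RNA per cell cannot be told apart.

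Arid5a itself checks the labels. The KO libraries held 5.51 and 6.85 FPKM without IL-6 and 8.47 and 8.15 FPKM with it, against 18.7 and 15.9 FPKM in untreated and 30.9 and 31.0 FPKM in IL-6-treated WT. Every KO library lay below every WT library, and untreated KO held 35.7% of the untreated WT mean. The IL-6 change of Arid5a in KO was 0.38 ± 0.10 (SE; limma adjusted p = 0.437). The 2 treated KO libraries lay above the 2 untreated ones, as in 19.6% of all genes tested.

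The labelled cell type was checked against marker genes. Of 12 fibroblast markers 9 reached 1 FPKM in every KO library, and the summed level of all 12 was 6287 to 6608 FPKM in KO and 7842 to 9136 FPKM in WT. Much of the WT sum was S100a4, at 4417.0 to 5099.7 FPKM in WT and 1012.7 to 1149.3 FPKM in KO. The collagen gene Col1a1 went the other way, with 911.7 to 1058.6 FPKM in KO and 417.9 to 565.2 FPKM in WT. The sum therefore does not give the direction of each marker. All 10 mesothelial markers, genes of the cells that line body cavities, also reached 1 FPKM in every KO library, with a sum of 1678 to 1738 FPKM in KO and 39.3 to 53.4 FPKM in WT. Of 10 epithelial markers 5 did so, 3 of which are also on the mesothelial list, while Krt5 was at 0 and Epcam at 0.487 to 0.636 FPKM. The 10 summed to 331 to 347 FPKM in KO and 6.03 to 8.64 FPKM in WT. Of the 10 mesothelial markers 4 had a KO change above 0 and none reached an unadjusted p below 0.05. Of all genes tested only 7.49% did, so none of 10 says little. The mesothelial sums of KO and WT did not overlap, and within KO they differed little between treatments. The part of this marker difference in the unequal responses to IL-6 was not tested.

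The response to IL-6 in KO cells was small. Only 3 genes passed the test, and all 3 rose: Igfbp3, Spp1 and Cebpd. They are 0.0219% of the genes tested, against 2150 genes (15.7%) for the same comparison in WT, of which 1136 (8.3%) were higher and 1014 (7.41%) lower. No gene passed as lower in KO by limma (0.0%), although 431 were lower at an unadjusted p below 0.05 (3.15%) and 594 were higher (4.34%). In all 1025 genes had an unadjusted p below 0.05, or 7.49% of those tested, where an even spread of p would give 684.6. A log2 difference of at least 0.5 was seen upward in 91 genes (0.665%) and downward in 57 (0.416%) in KO, and in 426 (3.11%) and 357 (2.61%) in WT. Between the 1st and 99th percentile, KO changes ran from -0.35 to 0.41 and WT changes from -0.75 to 0.95. For the 7854 genes with a mean of at least 10 FPKM, the SD of the changes was 0.156 in KO, where pairs of libraries within groups would give 0.121. In WT it was 0.251 against 0.127.

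**Figure D1:**
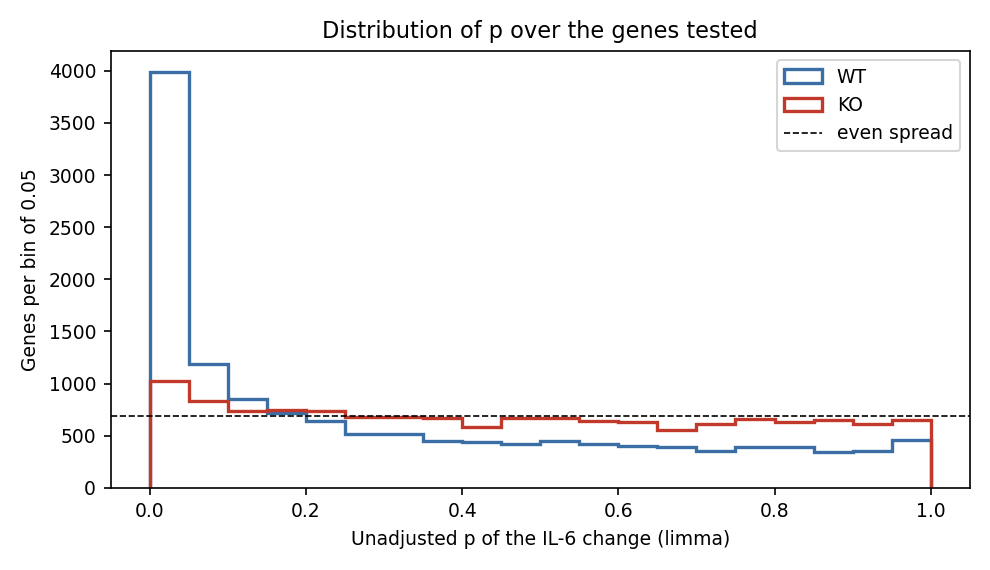
Number of genes (y) in each bin of 0.05 of the unadjusted limma p of the IL-6 change (x), for KO (red) and WT (blue), with the 684.6 genes per bin of an even spread as a dashed line. The first bin holds 1025 genes in KO and 3993 in WT, and the later KO bins hold 556 to 830.

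Igfbp3 encodes a secreted protein that binds insulin-like growth factors (GRCm38, chr11:7206086-7213923, minus strand). Untreated KO libraries held 50.8 and 51.3 FPKM, and the treated ones 92.3 and 95.02 FPKM. Both treated libraries lay far above both untreated ones, with little spread inside a group. The change was 0.86 ± 0.05 (SE, n = 2 per group; limma adjusted p = 0.0028), a 1.83-fold rise. In WT the level was lower and the change larger, from 13.5 and 12.6 FPKM to 40.1 and 37.4 FPKM, a log2 change of 1.50. The 2 changes differed (limma adjusted p = 0.00322), as they did for 830 genes in all, or 6.06%.

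Spp1 encodes osteopontin, a secreted matrix and cytokine-like protein (chr5:104435118-104441050, plus strand). Its level was 73.4 and 74.1 FPKM in untreated and 112.5 and 108.3 FPKM in treated KO. The groups did not overlap, and the change of 0.58 ± 0.03 (SE, n = 2 per group) passed (limma adjusted p = 0.0028). The change in WT was 0.44, on a level of 279.3 to 384.6 FPKM, and the difference between the 2 changes, 0.14, did not pass (limma adjusted p = 0.159).

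Cebpd encodes C/EBP-delta, a transcription factor of the acute-phase response (chr16:15887286-15891031, plus strand). It held 6.48 and 6.92 FPKM in untreated and 11.0 and 11.8 FPKM in treated KO, again without overlap. The change was 0.69 ± 0.06 (SE, n = 2 per group; limma adjusted p = 0.0401), beside 0.83 in WT, where the level was several times higher (28.6 to 55.3 FPKM). The difference between the changes, -0.14, did not pass (limma adjusted p = 0.424).

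These 3 calls lean on the spread shared by all 8 libraries. Fitted on the 4 KO libraries alone no gene passed, while 1105 had an unadjusted p below 0.05, with limma adjusted p = 0.0698 for Igfbp3, 0.0989 for Spp1 and 0.428 for Cebpd. Without the first untreated KO library, Igfbp3 and Spp1 had adjusted p = 0.0551, and without the second, 0.0718. Without the second treated KO library Igfbp3 had adjusted p = 0.0524. Cebpd missed the threshold whichever library was left out, with adjusted p from 0.0516 to 0.321. The changes themselves moved little, from 0.84 to 0.88 for Igfbp3, 0.55 to 0.60 for Spp1 and 0.64 to 0.73 for Cebpd.

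**Figure D2:**
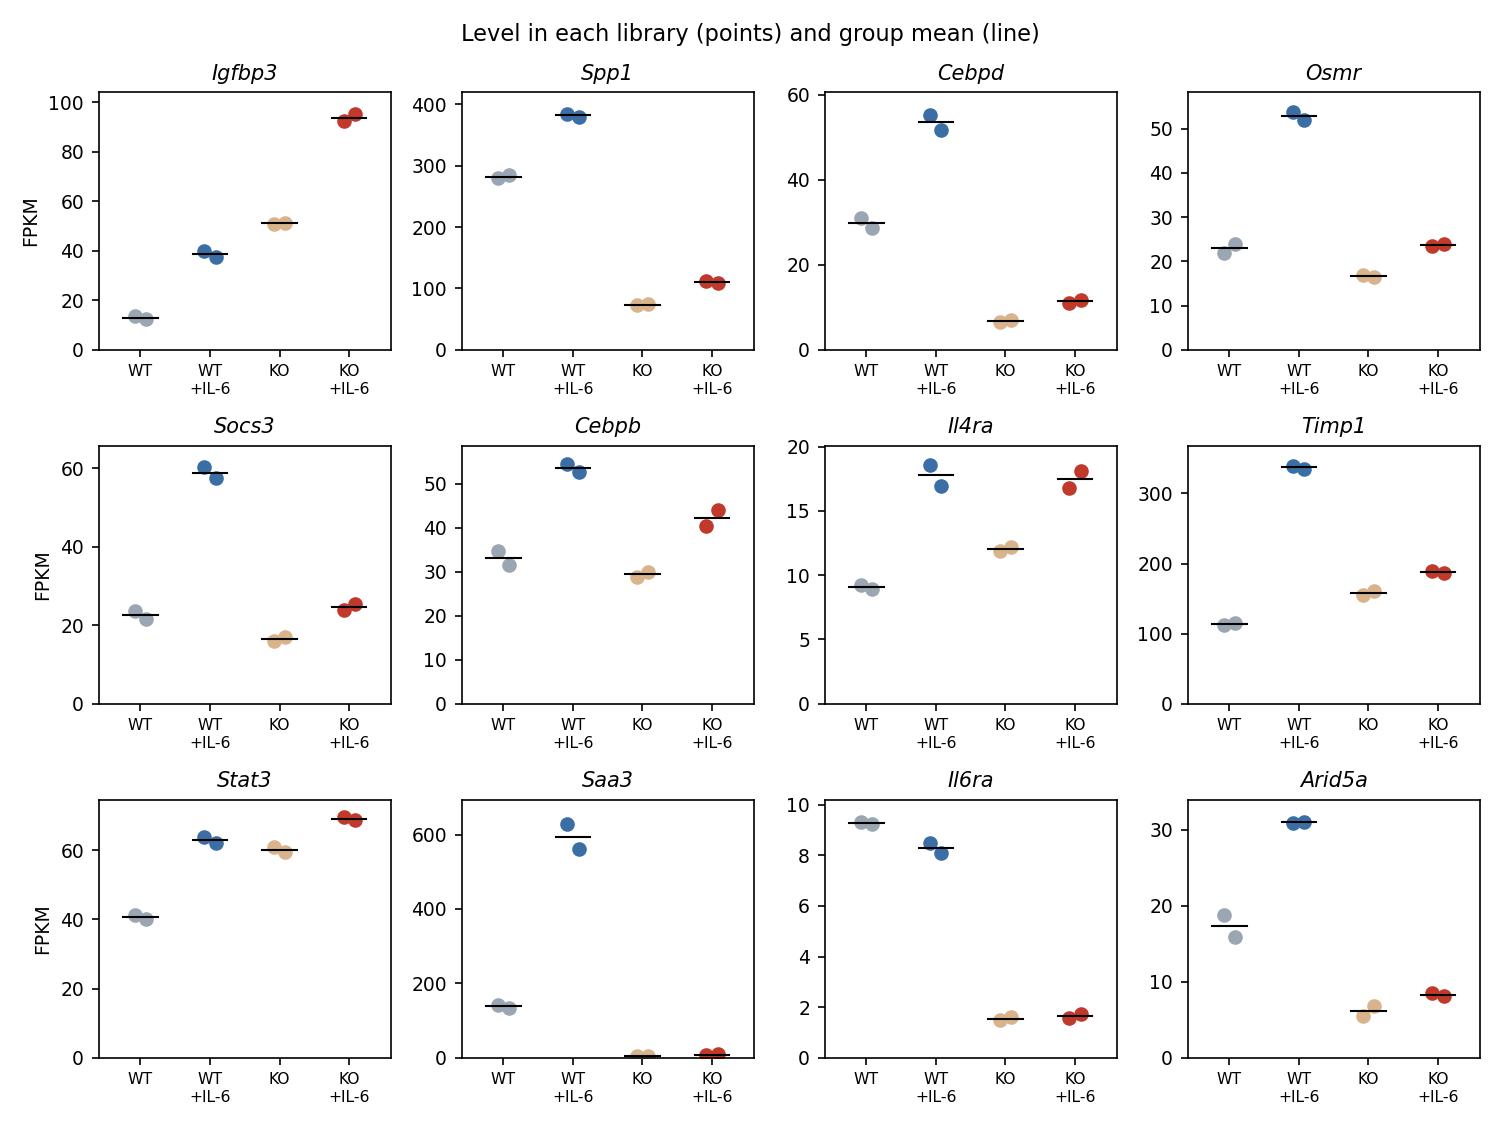
FPKM (y, linear, from 0) of 12 genes in each library (points) with the group mean (line), for WT and KO cells without and with IL-6. Igfbp3, Spp1 and Cebpd, the 3 genes that passed in KO, show treated KO libraries clear of untreated ones, whereas Il6ra stays between 1.48 and 1.71 FPKM in all 4 KO libraries.

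The receptor and its signal chain were present in KO cells at unequal levels. Il6ra, the IL-6-binding chain, held 1.48 and 1.59 FPKM in untreated and 1.57 and 1.71 FPKM in treated KO, against 8.08 to 9.31 FPKM in WT. No KO library overlapped with a WT library, while treated and untreated KO libraries overlapped. Il6st, the gp130 chain, held 78.7 and 78.5 FPKM in untreated and 84.5 and 87.8 FPKM in treated KO. Its change of 0.13 did not pass (limma adjusted p = 0.514) and was smaller than the 0.55 of WT (adjusted p of the difference 0.00795). Of the kinases that sit on gp130, Jak1 had a KO change of 0.04 (limma adjusted p = 0.881) and Jak2 one of 0.17 (0.541). Jak1 levels were 34.4 to 35.9 FPKM in KO and 61.5 to 78.2 FPKM in WT. The part of these receptor and kinase levels in the size of the response was not tested.

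Among 32 tested genes of 36 on the IL-6 receptor and JAK/STAT list, 6 were higher and 1 lower at an unadjusted p below 0.05, where 4.34% of all genes were higher and 3.15% lower. None passed, and the median change was 0.02, beside 0 over all genes tested and 0.21 for the same list in WT. The smallest p in this list belonged to Osmr, the oncostatin M receptor, which also pairs with gp130. Its level was 16.8 and 16.5 FPKM in untreated and 23.5 and 23.9 FPKM in treated KO, without overlap. The change was 0.49 ± 0.05 (SE; limma adjusted p = 0.0706), beside 1.17 in WT. Socs3, the feedback inhibitor, held 16.0 and 16.9 FPKM in untreated and 23.9 and 25.4 FPKM in treated KO. Treated libraries again lay above untreated ones, at a change of 0.55 ± 0.06 (SE; limma adjusted p = 0.0774), beside 1.35 in WT. Both genes passed when only genes at 5 FPKM or more were tested, with limma adjusted p = 0.044 and 0.0451.

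Stat3 itself held 60.8 and 59.5 FPKM in untreated and 69.5 and 68.8 FPKM in treated KO, a change of 0.20 (limma adjusted p = 0.279), while WT went from 41.4 and 40.1 to 63.8 and 62.0 FPKM. Treated and untreated KO libraries did not overlap, and untreated KO lay close to treated WT. Il6, the cytokine's own gene, held 1.04 and 1.11 FPKM in untreated and 0.965 and 1.07 FPKM in treated KO, where the libraries overlapped, and 1.19 and 1.21 against 5.61 and 4.59 FPKM in WT. The Il6 changes differed between the genotypes by -1.50 (limma adjusted p = 0.00186).

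STAT3 target genes were mostly higher in treated KO libraries. Of its 37 tested genes of 38, only Cebpd passed, but 21 were higher and 2 lower at an unadjusted p below 0.05, where 4.34% of all genes were higher and 3.15% lower. The change was above 0 in 31 of the 37 genes, with a median of 0.14 in KO beside 0.72 in WT. Treated libraries lay above untreated ones in 27 of the 37, against 19.6% of all genes. Leaving out each library in turn left 14 to 21 genes higher. The list was put together with results of these data known.

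By p, Cebpd, Osmr and Socs3 were followed by Cebpb, the partner transcription factor of Cebpd, with 28.9 and 29.9 FPKM in untreated and 40.3 and 43.9 FPKM in treated KO. Its change was 0.50 ± 0.06 (SE; limma adjusted p = 0.125), beside 0.68 in WT. Il4ra, the interleukin 4 receptor chain, went from 11.9 and 12.2 to 16.8 and 18.1 FPKM, a change of 0.50 (adjusted p = 0.128). Neither gene had overlapping groups. Timp1, an inhibitor of matrix metalloproteinases, held 155.3 and 160.2 FPKM in untreated and 189.8 and 187 FPKM in treated KO. This was a change of 0.25 ± 0.03 (SE; limma adjusted p = 0.128), beside 1.56 in WT, where it went from 112.7 and 115.4 to 338.8 and 335.4 FPKM. The Timp1 changes differed by -1.30 (limma adjusted p = 9.04e-05).

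Several other members had the sign of WT at a smaller size. Junb, an AP-1 factor, had a change of 0.31 in KO and 1.22 in WT. The values were 0.27 and 0.84 for Ier3, an early response gene, 0.33 and 1.12 for Bcl3, a nuclear NF-kappaB cofactor, and 0.27 and 0.85 for Bcl6, a transcriptional repressor. None of these KO changes passed (limma adjusted p from 0.286 to 0.541), and in each the difference from WT did (limma adjusted p from 0.00207 to 0.0268). Ccnd1, cyclin D1, was the member with the lowest change, -0.26 in KO and -1.30 in WT, at 3.77 and 3.78 FPKM in untreated and 3.04 and 2.93 FPKM in treated KO. Vegfa, the angiogenic growth factor, had opposite signs, -0.21 in KO and 0.56 in WT (limma adjusted p of the difference 0.00682). Ptx3, a secreted pattern-recognition protein, held 80.2 and 77.9 FPKM in untreated and 80.7 and 80.5 FPKM in treated KO. It was well expressed in KO, with a change of 0.03, beside 1.37 in WT.

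**Figure D3:**
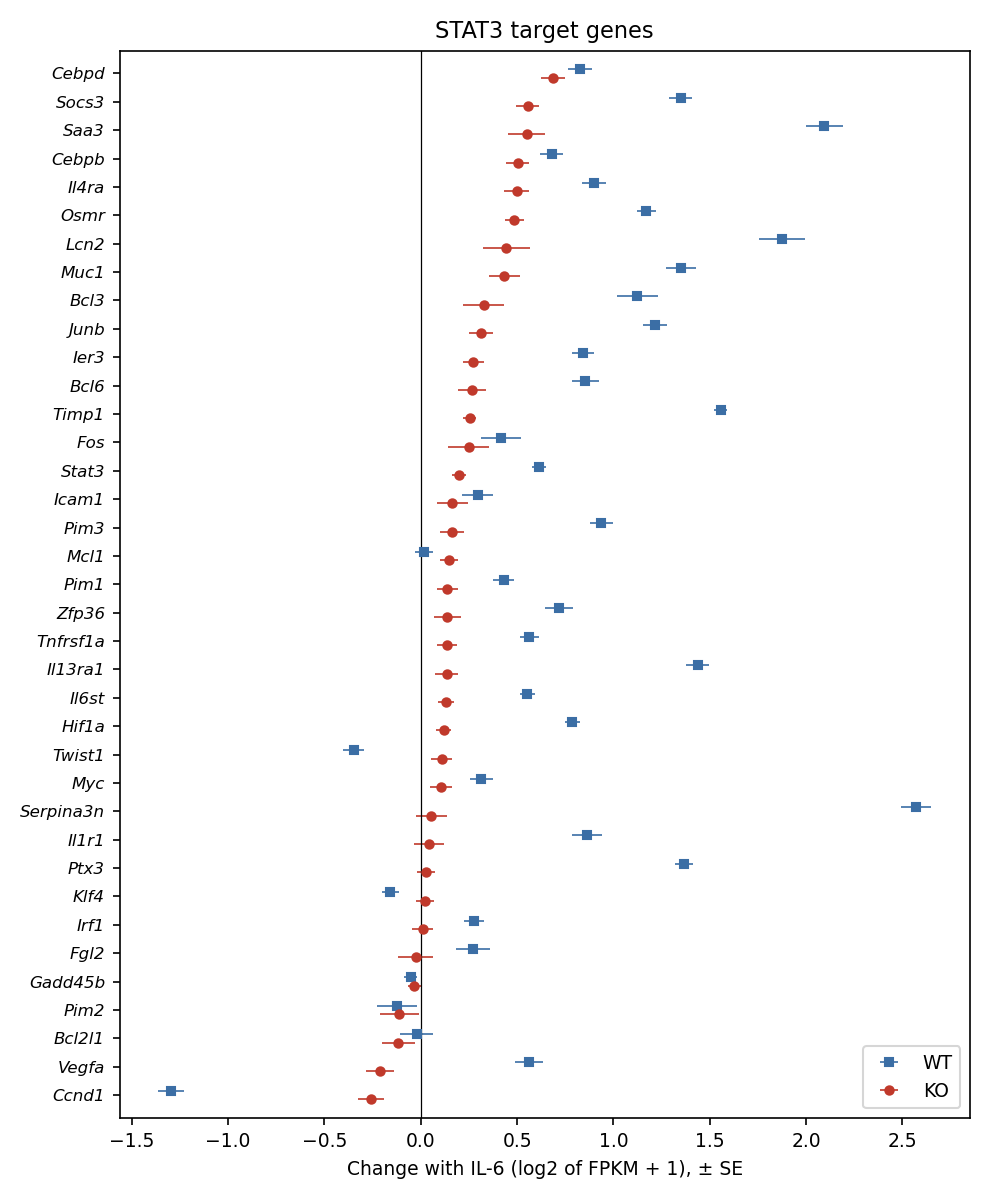
Change with IL-6 (x, log2 of FPKM + 1, ± SE from limma) of the 37 tested STAT3 target genes (y), in KO (red circles) and WT (blue squares), ordered by the KO change. Most red circles lie to the right of 0, with a median of 0.14, and most blue squares lie further right, with a median of 0.72.

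Promoter sequence was looked at because STAT factors bind the palindrome TTCNNNGAA, which reads alike on both strands. It occurs in the 250 bases before the start of 8.13% of 27025 genes with a RefSeq promoter, and of 7.17% of the 9872 tested genes with an entry. Of the STAT3 target genes 7 of 34 with an entry hold it (20.6%), and of those higher in KO at an unadjusted p below 0.05, 3 of 20 (15%): Bcl6, Socs3 and Tnfrsf1a. Igfbp3 and Spp1 do not hold it in this window. The sequences of the feedback inhibitor Socs3 (chr11:117969367-117969616, minus strand) and of 1 of the 2 listed starts of Bcl6 (chr16:23981284-23981533, minus strand) are shown from RefSeq on GRCm38.p6, 5′ to 3′, with the match in capitals, as 2 members higher in treated than in untreated libraries of both genotypes, with 1 and 3 matches.
Socs3: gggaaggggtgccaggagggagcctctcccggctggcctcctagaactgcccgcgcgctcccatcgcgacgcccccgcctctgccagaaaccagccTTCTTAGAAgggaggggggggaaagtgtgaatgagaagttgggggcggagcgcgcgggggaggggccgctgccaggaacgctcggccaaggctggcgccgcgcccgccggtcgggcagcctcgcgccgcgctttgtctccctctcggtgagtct
Bcl6: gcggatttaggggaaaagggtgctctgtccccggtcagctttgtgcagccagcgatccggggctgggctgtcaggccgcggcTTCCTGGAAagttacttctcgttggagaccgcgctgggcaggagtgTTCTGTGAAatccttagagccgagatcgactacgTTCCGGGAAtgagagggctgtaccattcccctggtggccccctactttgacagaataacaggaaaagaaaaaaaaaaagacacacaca
The Socs3 match starts 154 bases before the gene start, and the Bcl6 matches start 168, 122 and 88 bases before it. A match is a description of the letters, and no match says only that they are not in this window.

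Acute-phase and complement genes had the highest median change in KO of the lists that are not cell type markers, 0.21 over 21 tested genes of 36, beside 0.76 in WT. None passed, 11 were higher and 0 lower at an unadjusted p below 0.05 (4.34% and 3.15% of all genes), and 19 of the 21 changes were above 0. Without the first untreated KO library 7 were higher, and over all libraries left out in turn the count was 7 to 13. Of the 36 genes, 10 were at 0 FPKM in all 4 KO libraries. Steap4, a metalloreductase, held 3.90 and 3.75 FPKM in untreated and 5.87 and 5.504 FPKM in treated KO. Its change was 0.47 ± 0.08 (SE; limma adjusted p = 0.272), without overlap of the groups. Saa3, an acute-phase serum amyloid gene with near copies in the genome, held 5.91 and 4.83 FPKM in untreated and 7.80 and 8.80 FPKM in treated KO. WT held 142.8 and 133.9 FPKM without and 628.6 and 560.3 FPKM with IL-6. The Saa3 change was 0.55 in KO (limma adjusted p = 0.279) and 2.09 in WT, and the 2 differed (limma adjusted p = 0.00157).

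Complement genes in this list had small changes on clearly expressed levels. C4b, complement component 4, had a change of 0.43 in KO and 1.32 in WT, but its copy C4a is nearly identical and reads may be split between them. C3, the central complement component, held 80.3 and 80.2 FPKM in untreated and 93.9 and 95.6 FPKM in treated KO, a change of 0.24, beside 0.29 in WT. Lcn2, lipocalin 2, was at 0.184 to 0.851 FPKM in KO and 56.8 to 228.9 FPKM in WT. Haptoglobin, Hp, was the reverse, with 11.8 and 12.9 FPKM in untreated and 14.6 and 14.9 FPKM in treated KO, beside 0.761 to 8.42 FPKM in WT. Its KO change of 0.24 did not pass (limma adjusted p = 0.709).

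Across genes the KO response ran weakly along the WT response. Of the 2150 genes that passed in WT, 1333 had the same sign in KO, or 62% (95% Wilson interval 59.9 to 64.0, which treats genes as independent, and they are not). Of the 11543 that did not pass in WT, 50.4% had the same sign. The 2 responses share no library, but their tests share the estimate of each gene's spread. Over the 2150 genes the correlation of the changes was 0.10 (Pearson) and 0.30 (Spearman), and over all 13693 genes -0.04 and 0.09, as descriptions over genes. Of the 1136 genes higher in WT, 14.5% were higher in KO at an unadjusted p below 0.05 and 2.82% lower. Over all genes tested these shares were 4.34% and 3.15%. The median change of the 1136 genes was 0.03 in KO and 0.36 in WT. Of the 1014 lower in WT, 6.11% were lower in KO and 4.54% higher, with medians of -0.02 and -0.36.

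The genes with the largest WT responses had small changes in KO. Of 104 genes that rose in WT by a log2 change of at least 1, 100 had a KO change below that of WT by the test of the difference, where 3.52% of all genes did. These differences rest on the same WT change that chose the genes. In KO, 33 of the 104 were higher at an unadjusted p below 0.05 and 1 was lower, where 4.34% of all genes were higher and 3.15% lower. Their median KO change was 0.08. Their level also differed, since 34 of the 104 were under 1 FPKM in every KO library. Over the other 70 genes, 31 were higher and the median KO change was 0.18, beside 1.21 in WT. For the 22 whose untreated KO level lay within 2-fold of untreated WT, 10 were higher, the median was 0.14 beside 1.34 in WT, and all 22 had a KO change below WT. Of 40 genes that fell in WT by a log2 change of at least 1, 4 were lower in KO at an unadjusted p below 0.05 and 33 had a KO change above that of WT, as did 2.54% of all genes.

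Some genes with a strong WT response were well expressed in KO and had small changes there. Gja1, the gap-junction protein connexin 43, held 158.1 and 156.2 FPKM in untreated and 155 and 158.7 FPKM in treated KO. The libraries overlapped, while WT went from 81.7 and 81.3 to 221.1 and 232.9 FPKM. Pfkfb3, a regulator of glycolysis, held 11.7 and 11.2 FPKM in untreated and 11.0 and 10.6 FPKM in treated KO, against 11.3 and 11.8 and then 32.5 and 30.7 FPKM in WT. Untreated levels were alike in KO and WT, and the changes differed by -1.46 (limma adjusted p = 0.000365). Slpi, a secreted protease inhibitor, had a change of -0.06 in KO and 1.83 in WT. Fth1, the ferritin heavy chain, held 977.3 and 1023.1 FPKM in untreated and 1121.0 and 1099.8 FPKM in treated KO, without overlap. Its change was 0.15 ± 0.04 (SE; limma adjusted p = 0.415) in KO and 1.15 in WT. Acta2, smooth muscle actin, held 332 and 350.7 FPKM in untreated and 315.3 and 328.8 FPKM in treated KO, while WT fell from 46.1 and 44.6 to 15.7 and 17.1 FPKM. The limma adjusted p of the difference was 9.04e-05 for Gja1 and 0.000365 for Slpi, Fth1 and Acta2.

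**Figure D4:**
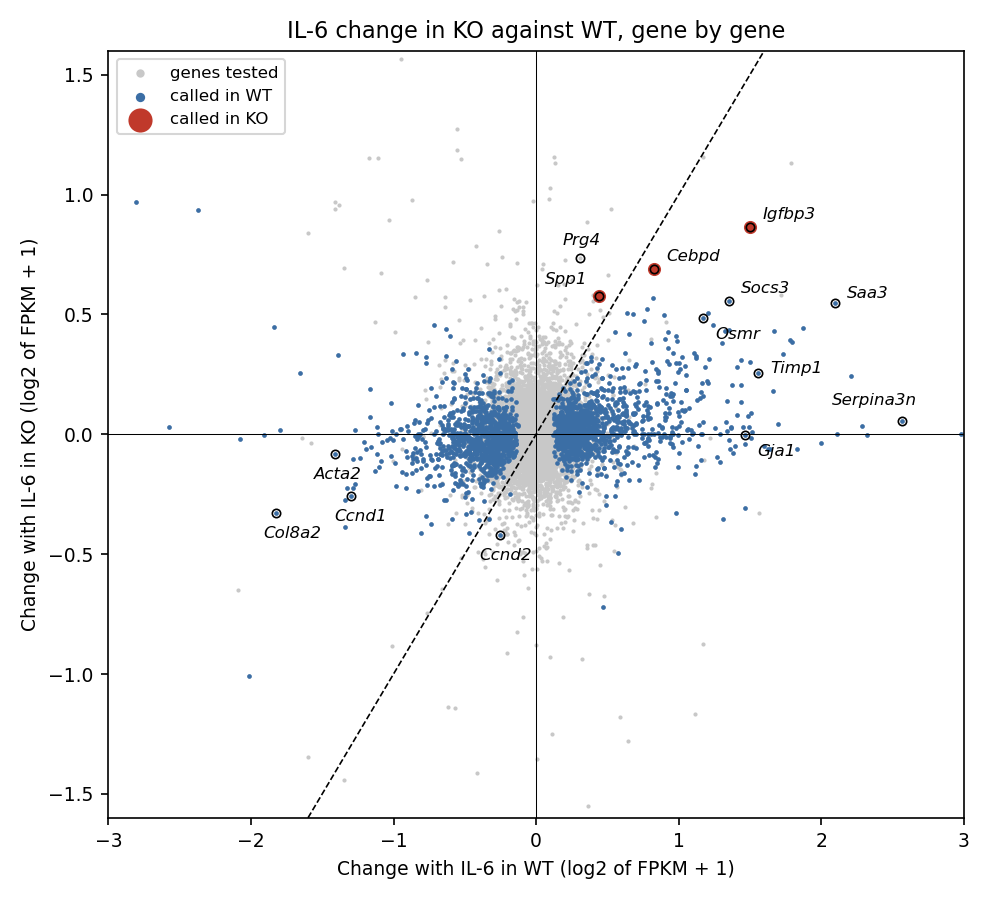
Change with IL-6 in KO (y) against WT (x), both as log2 of FPKM + 1, for the genes tested (grey), those that passed in WT (blue) and those that passed in KO (red), with equal changes on the dashed line; 25 of the 13693 genes lie outside the axes. The blue points spread widely along x and little along y, Igfbp3 and Cebpd lie below the dashed line, and Spp1 lies just above it.

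Read from the KO side, the genes with small p were partly those of WT. Of the 594 higher in KO at an unadjusted p below 0.05, 27.8% also passed as higher in WT, where 8.3% of all genes did, and 7.74% passed as lower. Of the 431 lower in KO, 14.4% passed as lower in WT, where 7.41% of all genes did, and 7.42% passed as higher. The KO and WT tests of a gene use the same estimate of its spread, so their p-values are not independent. The part of this in these shares was not tested. Pseudogenes made up 15.2% of the 594 and 6.69% of all genes tested. Reads of a pseudogene can be shared with its parent gene, so these values are uncertain.

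At an unadjusted p below 0.05, 594 genes were higher in KO (4.34% of those tested) and 431 lower (3.15%). Of these, 435 higher and 306 lower genes had no overlap and a mean of 5 FPKM or more in the higher group. Many of the largest were short RNAs and pseudogenes, some of them listed at 0 in 1 or more libraries. Gm24967, for instance, had 0 FPKM in untreated KO (both libraries), with 63.3 and 124.9 FPKM in treated KO, but also at 71.3 FPKM in 1 untreated WT library and 0 in the other (limma adjusted p = 0.405). On the lower side, the pseudogene Gm9512 had 8.07 and 6.55 FPKM in untreated and 3.10 and 1.95 FPKM in treated KO (change -1.25, limma adjusted p = 0.128). Gm1943, also a pseudogene, held 20.96 and 23.5 FPKM in untreated and 13.7 and 12.5 FPKM in treated KO, and 20.9 and 24.1 FPKM against 33.1 and 30.1 FPKM in WT. Its changes had opposite signs, -0.72 in KO and 0.47 in WT, and they differed (limma adjusted p = 0.00264).

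Several protein-coding genes with large KO differences had a lower level in WT than in KO, and the WT libraries enter the spread of the fit. Prg4, which encodes the joint lubricant lubricin, held 5.30 and 4.35 FPKM in untreated and 8.81 and 8.55 FPKM in treated KO, and under 1 FPKM in WT. The change was 0.74 ± 0.10 (SE; limma adjusted p = 0.128). Tnni1, slow skeletal troponin I, held 10.3 and 9.06 FPKM in untreated and 6.36 and 6.43 FPKM in treated KO, and at most 0.076 FPKM in WT. The change was -0.53 ± 0.08 (SE; limma adjusted p = 0.243). Tnnt2, cardiac troponin T, held 17.3 and 14.1 FPKM in untreated and 11.0 and 12.01 FPKM in treated KO (change -0.41, limma adjusted p = 0.476). Both troponin genes were lower in both treated libraries than in both untreated ones, as were 18.8% of all genes. Ccnd2, cyclin D2, held 38.9 and 37.97 FPKM in untreated and 28.5 and 28.5 FPKM in treated KO, beside 2.83 to 3.93 FPKM in WT. The change was -0.42 ± 0.06 (SE; limma adjusted p = 0.203), and the groups did not overlap. Prph, the neuronal filament protein peripherin, held 11.7 and 9.61 FPKM in untreated and 14.8 and 17.4 FPKM in treated KO, and 5.19 to 6.12 FPKM in WT. Its change was 0.56 in KO and -0.12 in WT (limma adjusted p of the difference 0.0488).

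No protease or matrix gene on the lists passed in KO, but Spp1, a matrix protein that passed, is not on them. On the list of proteases and their inhibitors, 6 of 29 tested genes were higher and 1 lower at an unadjusted p below 0.05, where 4.34% of all genes were higher and 3.15% lower, with a median of 0.01 and 17 of the 29 above 0. The stromelysin Mmp3 held 1.19 and 1.26 FPKM in untreated and 1.95 and 1.84 FPKM in treated KO, and Mmp19, another matrix metalloproteinase, 4.95 and 4.72 FPKM and then 6.14 and 5.94 FPKM. Mmp10, the second stromelysin, held 1.38 and 1.34 FPKM in untreated and 2.15 and 2.002 FPKM in treated KO. None of the 3 genes had overlapping groups, as in 38.3% of all genes, and none passed (limma adjusted p from 0.39 to 0.415). Of 45 fibrillar and other matrix genes, 2 were higher and 10 lower by the same measure, and 14 had a change above 0, with a median of -0.06 in KO and -0.15 in WT. The difference between these lists was not tested. Has2, which makes hyaluronan, was the highest of them, with 2.56 and 2.52 FPKM in untreated and 4.19 and 3.98 FPKM in treated KO (change 0.52, limma adjusted p = 0.15). On the lower side were Col18a1, a basement membrane collagen, at -0.35, Col8a2, a short-chain collagen, at -0.33, and Fmod, the collagen-binding fibromodulin, at -0.31. Col8a2 fell in WT by 1.83 on the log2 scale, and the 2 changes differed (limma adjusted p = 0.000598).

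No NF-kappaB target, cytokine or chemokine gene on the lists passed in KO, and the cytokine-like Spp1 is not on these lists either. Of 25 tested NF-kappaB target genes 4 were higher and 3 lower at an unadjusted p below 0.05, where 4.34% of all genes were higher and 3.15% lower, with a median of 0.09 in KO and 0.36 in WT. Nfkbiz, an inducible NF-kappaB cofactor, had a change of 0.24 and Tnfaip3, an inhibitor of NF-kappaB, one of -0.24. Of 27 cytokine and chemokine genes 1 was higher and 3 lower, with a median of -0.01, which stayed below 0 under quantile, total and median-ratio scaling, beside 0.29 in WT. The chemokine Ccl2 held 88.4 and 81.4 FPKM in untreated and 75.8 and 75.5 FPKM in treated KO, beside 752.4 and 770.6 and then 969 and 894.1 FPKM in WT. The signs were opposite and the changes differed by -0.45 (limma adjusted p = 0.016). Cd14, a co-receptor for bacterial lipopolysaccharide, held 1.98 and 1.99 FPKM in untreated and 2.87 and 2.80 FPKM in treated KO (change 0.36, limma adjusted p = 0.182). Cd14 is also on the macrophage list, of which 2 of 12 genes were tested and with Adgre1, Tyrobp and C1qa at 0 in every KO library. The list's sum was 4.31 and 4.09 FPKM in untreated and 5.44 and 5.31 FPKM in treated KO, and its part in the Cd14 value was not tested.

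Interferon-stimulated, integrated stress response and sterol genes had the lowest medians in KO of the lists that are not cell type markers. Of 45 interferon-stimulated genes 0 were higher and 2 lower at an unadjusted p below 0.05 (4.34% and 3.15% of all genes), and 40 had a change below 0, with a median of -0.12 in KO and -0.16 in WT. The sum of this list was 3866.4 and 3858.3 FPKM in untreated and 3642.0 and 3378.5 FPKM in treated KO. In WT it was 7736.5 and 7578.8 FPKM without and 7224.4 and 5882.3 FPKM with IL-6. The second treated library was the lowest in both genotypes. Isg15, a ubiquitin-like protein, held 507.1 and 511.6 FPKM in untreated and 446.2 and 426.1 FPKM in treated KO, and Oasl1, an antiviral protein, had a change of -0.27. Neither passed (limma adjusted p = 0.636 and 0.592). Of 30 integrated stress response genes, which respond to the factor ATF4, 1 was higher and 8 lower by the same measure, and 27 were below 0, with a median of -0.10 in KO and 0.02 in WT. Atf4 itself held 174 and 175.9 FPKM in untreated and 153.4 and 162.1 FPKM in treated KO. Slc7a5, an amino acid transporter, had a change of -0.22 and Ddit4, an inhibitor of mTORC1, one of -0.24. Trib3, the pseudokinase named in the labels of the study, is on this list too, with 16.7 and 18.5 FPKM in untreated and 13.9 and 15.2 FPKM in treated KO (change -0.26, limma adjusted p = 0.465).

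Of 30 sterol and fatty acid synthesis genes 1 was higher and 12 lower at an unadjusted p below 0.05, beside the same shares of all genes, and 26 were below 0, with a median of -0.10 in KO and 0.00 in WT. Insig1, a regulator of the pathway, held 56.9 and 57.7 FPKM in untreated and 50.9 and 50.9 FPKM in treated KO (change -0.17, limma adjusted p = 0.323). Msmo1, a sterol oxidase, held 125.5 and 117.4 FPKM in untreated and 108.9 and 104 FPKM in treated KO. Both genes had groups without overlap, as had 38.3% of all genes. The difference from WT did not pass for either (limma adjusted p = 0.523 and 0.0732). The medians of these 3 lists kept their sign under quantile, total and median-ratio scaling of the libraries.

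Hypoxia and glycolysis genes had medians of opposite sign in KO and WT. In KO none of the 32 passed, 0 were higher and 3 lower at an unadjusted p below 0.05 (4.34% and 3.15% of all genes), and 11 had a change above 0, with a median of -0.07. In WT 20 of the 32 passed as higher, where 8.3% of all genes did, with a median of 0.27. For 15 the KO change was below that of WT by the test of the difference, as for 3.52% of all genes. Hif1a, the oxygen-regulated factor, had the same sign in both, with a change of 0.12 in KO and 0.79 in WT (limma adjusted p of the difference 0.00125). Cytosolic ribosomal protein genes had 14 of 80 higher and 0 lower in KO at an unadjusted p below 0.05, beside 4.34% and 3.15% of all genes. Of the 80, 68 were above 0, with a median of 0.06, but 52 were above 0 with a median of 0.02 under quantile scaling. Rpl9 held 690.2 and 686 FPKM in untreated and 747.8 and 776.2 FPKM in treated KO, and Rps21 780.1 and 741 FPKM and then 860.7 and 941.9 FPKM. All 15 mitochondrially encoded genes had a change above 0, with a median of 0.11. Their share of all FPKM was 1.54% and 1.30% in untreated and 1.39% and 1.75% in treated KO, so the libraries overlapped.

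**Figure D5:**
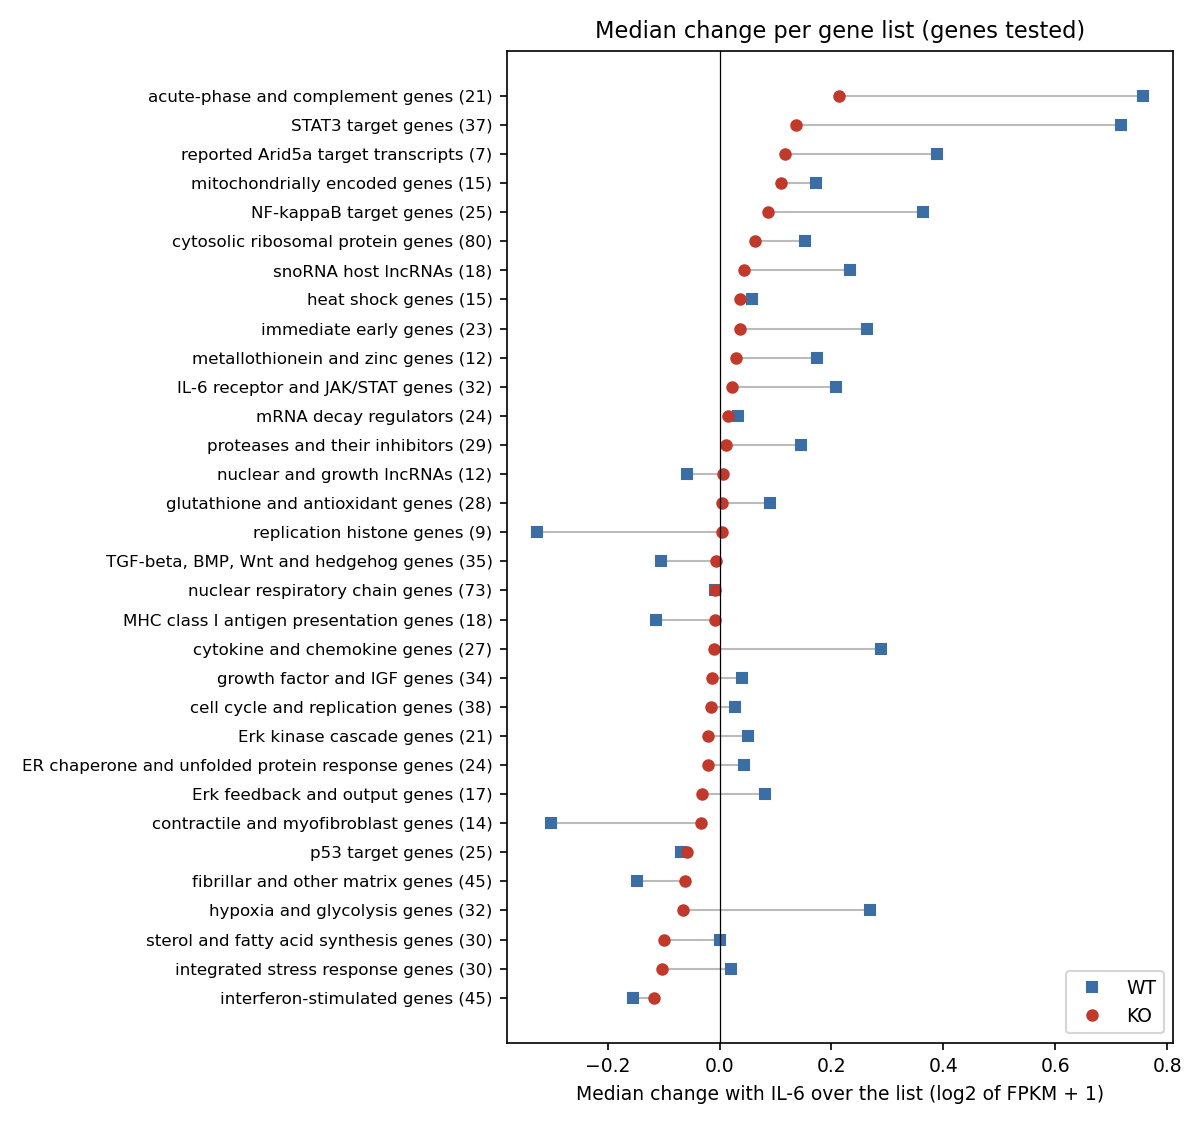
Median change with IL-6 (x, log2 of FPKM + 1) of each gene list (y, with the number of genes tested), in KO (red circles) and WT (blue squares). Acute-phase and STAT3 target genes have the highest KO medians of the lists shown, 0.21 and 0.14, and interferon-stimulated genes the lowest, -0.12.

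Of 671 lncRNA genes tested none passed in KO by limma. At an unadjusted p below 0.05, 39 were higher and 15 lower, which is 6.57% of all genes higher in this way and 3.48% of those lower, beside 4.9% of the genes tested. Gm27252 had the smallest p, with 1.10 and 0.998 FPKM in untreated and 2.28 and 1.80 FPKM in treated KO. Its change was 0.56 in KO and -0.15 in WT (limma adjusted p of the difference 0.0397). In WT it was at 0 to 0.145 FPKM, where the log2(FPKM + 1) scale understates a change, so its WT response is hardly measured. Fbxl12os and Zbtb11os1, lncRNAs named for the genes on the opposite strand, had changes of 0.43 and 0.37, but overlapping genes cannot be told apart where counting by strand is not stated. AU021063, the lncRNA in the title of the study, was at 0, 0 and 0 FPKM in 3 KO libraries and at 0.126 FPKM in 1 treated library, and was not tested.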

How the data were processed

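Per the labels' protocols, an RNeasy kit served for total RNA and a TruSeq stranded mRNA kit for the libraries. The authors deposited FPKM values per transcript for each library, made with HISAT2 and Cufflinks 2.2.1 on GRCm38.p6, per the submitters' processing notes. Counting by strand is not given in the sources used here. The 142869 transcripts were summed to 55358 genes by the name in the files. Gene classes and coordinates came from GENCODE M21, which held 53385 of the genes, and classes of 998 others from RefSeq. Low values lay on steps of whole fragments (93.8 to 95.7% of 1311 to 1513 values per library within 0.1 of a whole number after depth and fragment length were fitted), which gave the depths.

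A gene was kept if 2 or more of the 8 libraries held 1 FPKM or more. limma 3.58.1 (R 4.3.3) was fitted on log2(FPKM + 1), pseudocount 1, with group means (4 groups of 2, all 8 libraries in 1 fit), a trend of variance with level, and p adjusted by Benjamini-Hochberg for 13693 genes. Contrasts were IL-6 against none in KO and in WT, and the difference between these changes. The procedure was tested on simulated data with noise of the fitted spread and the same gene means in all groups. Known KO changes were given to 50 genes per size, drawn from genes above a minimum level. With all 8 libraries, 26% of changes of 0.25, 84% of 0.5 and 96% of 1 passed, as did 6 unchanged genes. The simulated set also held 50 genes changed by 2, and many large changes make the adjusted threshold easier to reach. Only 3 genes passed in KO, so these shares do not carry over to that comparison. Osmr (0.49) and Socs3 (0.55) did not pass there. Lists were described by counts and medians, with no set test. Python 3.11.15, pandas 2.3.3, numpy 2.4.6 and matplotlib 3.10.9 were used.

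The comparison, its members and the lists were chosen with earlier results of these data known. Named were the study's genes, every gene called in KO, the 15 largest rises and falls in KO among genes at 5 FPKM or more, those with the largest WT changes, up to 4 members of each list and 5 lncRNAs by smallest KO p, and the 10 smallest p of the difference. Not every gene so chosen is printed. Il4ra, Il6ra, Il6st, Jak1, Jak2, Muc1, Bcl6, Bcl3, Il13ra1, Hif1a, C3, Serping1 and Tnfrsf1a fall outside this rule and were chosen after their values were seen. Alternatives were other scalings, filters, pseudocounts and fits, the replicate number as a block, transcripts, and leaving out each library.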

Additional observations from a re-analysis of the deposited data

Results flagged for a closer look

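For the genes below the change with IL-6 differed between KO and WT by limma's test of the difference itself (adjusted p below 0.05), and each value is the KO change minus the WT change on the log2(FPKM + 1) scale. The KO and WT cells also differ in mesothelial and epithelial markers, whose part in these differences was not tested.

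In the signalling chain, the difference was -0.42 for Il6st, -0.29 for Jak1, -0.51 for Jak3, -0.42 for Stat3, -0.69 for Osmr, -0.80 for Socs3 and -1.50 for Il6. Of the genes that passed in KO, Igfbp3 differed, by -0.64. STAT3 targets and early genes differed by -0.40 (Il4ra), -1.30 (Timp1), -0.90 (Junb), -0.57 (Ier3), -0.92 (Muc1, a surface mucin), -0.59 (Bcl6), -0.80 (Bcl3), -1.34 (Ptx3), -1.30 (Il13ra1, an interleukin 13 receptor chain), -0.67 (Hif1a) and -0.77 (Vegfa). Cyclin D1, which fell in WT, differed the other way, by 1.04 for Ccnd1. Acute-phase and complement genes differed by -1.54 (Saa3), -1.43 (Lcn2), -2.51 (Serpina3n, a member of a cluster of near copies), -0.89 (C4b), -0.95 (Serping1, the C1 inhibitor) and -1.96 (Hp).

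Genes of the cell surroundings and surface differed by 1.50 (Col8a2), -0.92 (Mmp3), -0.74 (Mmp19), -0.45 (Ccl2), -0.56 (Cd14), -1.89 (Slpi), -1.47 (Gja1) and 1.33 (Acta2). Genes of metabolism, stress and growth differed by -1.46 (Pfkfb3), -1.0 (Fth1), -1.39 (Rgcc), -0.28 (Atf4), 0.33 (Slc7a5) and -0.54 (Ddit4). Tnni1, which is hardly expressed in WT, differed by -0.56, and Prph by 0.67. Pseudogenes and lncRNAs differed by -1.36 (Gm9512), -1.19 (Gm1943), 0.72 (Gm27252, which is hardly expressed in WT) and 0.58 (Zbtb11os1).

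The libraries behind Lcn2, Serpina3n and Rgcc were all under 1 FPKM in KO, where the log2(FPKM + 1) scale understates a change. As a ratio of mean FPKM, Lcn2 rose 3.33-fold in KO and 3.72-fold in WT, so its difference depends on the added 1. The ratios were 2.02 in KO and 3.59 in WT for Rgcc, and 1.41 and 7.45 for Serpina3n.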

How the results depend on the processing

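The count of genes that passed in KO (3) was 3 under quantile, total and median-ratio scaling. It was 7 with no filter, 5 with a filter of 5 FPKM, 0 when only the 4 KO libraries were fitted (1105 genes at an unadjusted p below 0.05) and 0 to 4 when a library was left out, with 0 without the second untreated KO library (847 at an unadjusted p below 0.05) and 1 without the first. The gene that passed without the first was Vaultrc5, a small RNA gene. The lone library of a group left by these fits is assumed to vary like the other groups. With 33179 transcripts in place of genes 2 passed, 1 each of Fscn1 and Gnb1, and both were lower. With the filter of 5 FPKM, Osmr and Socs3 joined the 3, and with no filter Igfbp3 and Spp1 passed, Cebpd did not. Cebpd also missed the threshold with no intensity trend (limma adjusted p = 0.0967), with a pseudocount of 5 (0.0659) and with the replicate block (0.159), and Rgcc, a cell cycle regulator at 0.436 to 0.941 FPKM in KO, passed of the settings run for it only with a pseudocount of 0.1 (change 0.87, limma adjusted p = 0.0479). Genes that differed between the responses (830) numbered 521 with no filter, 248 as transcripts and 383 to 523 without 1 library. Genes that passed in WT (2150) numbered 938 when only the WT libraries were fitted, 948 as transcripts and 1165 to 1774 without 1 library. The share of these with the same sign in KO (62%) was 58.2% with no filter and 60.3 to 66.1% without 1 library. STAT3 target genes higher in KO (21) numbered 14 to 21, and acute-phase genes (11) 7 to 13, without 1 library; for both lists the alternatives were chosen after seeing the data. The Arid5a change ran from 0.25 to 0.52 and the near-zero change of Gja1 from -0.019 to 0.014 without 1 library. The cause of these shifts was not tested, apart from the fewer samples or genes that a setting uses.

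Replicate numbers are shared between groups in the labels, but deviations of same-numbered libraries correlated at -0.10 to 0.05, so the numbers were not taken to pair the libraries. With the replicate block 2 genes passed in KO (Igfbp3 and Spp1), 564 in the difference and 1696 in WT, and 20 STAT3 target and 11 acute-phase genes were higher. The libraries held 36.4 to 46.1 M fragments, and how this depth limits the smaller changes was not tested.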
